A study of Homo sapiens with 6 samples.

Results

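The replication-dependent histone genes encode the core histones H2A, H2B, H3 and H4 and the linker histone H1 that are made for newly copied DNA. They were taken as every row of the gene count table whose symbol is H1-1 to H1-6 or belongs to the H2AC, H2BC, H3C or H4C series, which gave 69 of 62754 genes. By class there were 6 H1, 17 H2A, 18 H2B, 13 H3 and 15 H4 genes. On GRCh38 they lie on chromosome 6 (55 genes), chromosome 1 (13 genes) and chromosome 12 (1 gene).

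The study compared HK-2 cells, an established line of human proximal tubule epithelium, under Cisplatin with NAT10 present or silenced. All cells received Cisplatin together with either a negative control siRNA (CP+siNC) or a siRNA against NAT10 (CP+siNAT10). Dose and time are not on the labels; the study's methods chose 20 μM for 24 hours for this cell line. RNA sequencing gave 3 libraries per group, numbered as cells 1 to 3, with 19321665, 21602988 and 19464027 counts in CP+siNC and 20793709, 21531774 and 25192736 counts in CP+siNAT10. Samples without Cisplatin were not analysed here, all libraries came from a single cell line, and the siRNA sequence is not given in the sources used here. The labels do not say that the libraries of a group came from separate cultures, so p-values measure only the spread between these samples, which may be technical.

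Histone genes of these families are switched on as cells enter S phase, when the new DNA has to be packed into nucleosomes. Their mRNAs normally carry no poly(A) tail and end just after a conserved stem-loop, which the stem-loop binding protein SLBP recognises. Many of these genes can also be read past the stem-loop to a downstream poly(A) signal, which gives longer, polyadenylated mRNAs in cells that are not copying DNA. The libraries were made with a stranded mRNA kit, and how that kit captured mRNA is not given in the sources used here. The level of a histone gene here is therefore the level of those of its transcripts that the kit captured.

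Both kinds of mRNA end can be seen in the annotated transcripts of these genes in GENCODE 29 (GRCh38), in which 65 of the 69 members were found by identifier, all 65 at the deposited position. The histone stem-loop consensus was present in a transcript of 29 of these 65 members, against 0.281% of 19951 protein-coding genes. Of the 36 members without it, 33 had no transcript of 700 bases or more, so a missing match says only that the letters are not in the annotated transcript. Stem-loop windows are shown for H2BC5, the tested histone gene with the largest fold change, and for H2AC6, H2AC11, H3C10 and H4C8, members of other classes that were also higher in CP+siNAT10. Capitals mark the stem-loop, with 5 bases on either side.
H2BC5 stem-loop, chr6:26158582-26158607, plus strand: ccaaaGGCTCTTTTAAGAGCCacgca
H2AC6 stem-loop, chr6:26124664-26124689, plus strand: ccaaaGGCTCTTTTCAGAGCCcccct
H2AC11 stem-loop, chr6:27133510-27133535, plus strand: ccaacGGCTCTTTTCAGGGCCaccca
H3C10 stem-loop, chr6:27810511-27810536, plus strand: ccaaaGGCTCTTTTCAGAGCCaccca
H4C8 stem-loop, chr6:26285126-26285151, minus strand: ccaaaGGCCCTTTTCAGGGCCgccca
In these 5 windows the stem-loop starts 36, 43, 50, 31 and 41 bases after the stop codon, in the 3′ untranslated part of the transcript.

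A poly(A) signal (AATAAA or ATTAAA) within the last 40 bases of an annotated transcript was found for 21 of the 65 members, against 83.2% of all protein-coding genes. In 20 of these 21 members a transcript also held the stem-loop. The transcript ends below belong to 5 members that were higher in CP+siNAT10, with the signal nearest the end in capitals.
H2BC5 end, chr6:26171320-26171349, plus strand: taattAATAAAatctgcggagaattgtaaa
H2AC6 end, chr6:26139087-26139116, plus strand: tAATAAAaggtaatgcaaagggagaggaaa
H2BC11 end, chr6:27125897-27125926, minus strand: gaataaatgAATAAAgtaatattcctctgc
H3C10 end, chr6:27811271-27811300, plus strand: atgactaAATAAAatctgtataatccccac
H4C8 end, chr6:26277609-26277638, minus strand: agaattgtgaaaaAATAAAtgtttaagcca
In H2AC6 the signal starts 1158 bases after the stop codon along the transcript of 1668 bases, and in H3C10 it starts 793 bases after the stop codon of a transcript of 1237 bases. H2BC11 has the poly(A) signal and no match to the stem-loop in its annotated transcripts.

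The promoters of these genes were read from RefSeq (GRCh38.p14), from 250 bases before to 50 bases after the annotated start, and 64 of the 69 members matched by symbol. They are shown because many members were higher together. The TATA box TATAAA was present on either strand in 42 of the 64 member promoters, against 12% of 27305 promoters in all. The CCAAT box (CCAAT) was present in 54 members, against 35.7% of all promoters, and these included all 18 H2B and all 16 H2A promoters but 3 of 13 H4 promoters. The octamer ATTTGCAT, a site bound by POU2F1, was present in 14 of 18 H2B and 11 of 16 H2A promoters, in 1 of 11 H3 promoters and in no H1 or H4 promoter, against 1.8% of all promoters. The sequence AAACACA, known from H1 promoters, was present in all 6 H1 promoters, against 5.76% of all promoters. The promoters of H2BC5, H2BC12, H2AC6 and H1-2 are printed with each match to these 4 motifs, on either strand, in capitals. In H2BC12 matches to the TATA box on both strands overlap.
H2BC5 promoter, chr6:26157871-26158170, plus strand: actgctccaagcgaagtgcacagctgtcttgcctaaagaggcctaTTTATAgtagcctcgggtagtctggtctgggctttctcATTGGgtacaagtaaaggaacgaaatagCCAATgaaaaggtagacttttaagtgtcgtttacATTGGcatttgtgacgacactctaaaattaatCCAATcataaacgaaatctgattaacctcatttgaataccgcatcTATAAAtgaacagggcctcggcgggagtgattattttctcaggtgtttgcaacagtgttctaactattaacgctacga
H2BC12 promoter, chr6:27146809-27147108, minus strand: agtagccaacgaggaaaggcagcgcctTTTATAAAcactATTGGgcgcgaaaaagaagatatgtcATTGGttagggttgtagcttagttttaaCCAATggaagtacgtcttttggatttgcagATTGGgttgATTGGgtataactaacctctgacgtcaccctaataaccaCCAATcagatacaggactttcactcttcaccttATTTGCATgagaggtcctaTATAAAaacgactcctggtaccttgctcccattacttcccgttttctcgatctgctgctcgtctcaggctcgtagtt
H2AC6 promoter, chr6:26123922-26124221, plus strand: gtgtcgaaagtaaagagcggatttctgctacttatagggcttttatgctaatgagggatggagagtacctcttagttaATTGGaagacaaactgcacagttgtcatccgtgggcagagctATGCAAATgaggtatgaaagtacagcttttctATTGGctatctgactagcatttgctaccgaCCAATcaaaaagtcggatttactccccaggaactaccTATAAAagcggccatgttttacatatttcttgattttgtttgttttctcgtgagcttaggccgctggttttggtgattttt
H1-2 promoter, chr6:26056421-26056720, minus strand: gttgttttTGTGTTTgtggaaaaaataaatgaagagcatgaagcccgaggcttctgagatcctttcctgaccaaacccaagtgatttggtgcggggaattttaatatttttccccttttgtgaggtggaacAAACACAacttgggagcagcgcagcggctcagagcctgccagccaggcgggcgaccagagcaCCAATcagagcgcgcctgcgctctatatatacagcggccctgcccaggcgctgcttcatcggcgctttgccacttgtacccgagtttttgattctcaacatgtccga
Among the 7 members that were more than 2-fold higher in CP+siNAT10, 6 promoters held the octamer, and that of H2BC5 did not. The 6 include H2BC8 and H2BC9, which entered the test through CP+siNAT10 alone, as given below. They also include H2BC6, which had a CP+siNC library under the filter limit. Of these 7 genes 6 are H2B genes, and 8 of the 10 tested H2B promoters held it, so the count is close to that of the class. A match is a description of the sequence and says nothing of binding in these cells.

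The targeted gene was measured before the histone genes. NAT10 (ENSG00000135372), on chromosome 11 from 34105617 to 34147670, was at 75.8, 71.4 and 73.2 CPM (counts relative to library sizes scaled by the TMM method) in CP+siNC and at 41.3, 40.5 and 42.5 CPM in CP+siNAT10. The silenced libraries were the 3 lowest, in the direction of the labels, with no overlap. The means were 73.5 ± 2.25 and 41.4 ± 0.963 CPM (SD of 3 libraries each). The log2 fold change was -0.82 with an SE of 0.0426. Its adjusted p was 2.79e-15 (edgeR quasi-likelihood test with Benjamini-Hochberg (BH) adjustment over all tested genes). SE here is an approximate standard error, the size of the log2 fold change divided by the square root of the F statistic of that test.

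Markers of the cell line were checked in the same way. Of 9 epithelial and renal markers, 8 passed the filter on low counts, led by the keratin KRT8 at 1455 CPM in CP+siNC and 1450 CPM in CP+siNAT10. CDH1 was near 0, and the renal transcription factor PAX8 was at 31.4 and 47.2 CPM. Of 9 markers of the differentiated proximal tubule 3 passed the filter, of which GGT1 led at 33.2 and 27.4 CPM, while SLC22A6 was at 0 in all libraries and LRP2 was near 0. Epithelial and renal markers were thus present, and transport genes of the mature proximal tubule were mostly absent. Markers of other nephron segments summed to at most 0.412 CPM and endothelial markers to at most 0.514 CPM in any library. Of the leukocyte markers reported here CD14 was the most abundant, at 1.07 CPM in CP+siNC and 1.04 CPM in CP+siNAT10, and CD3E was near 0, at 0.267 and 0.316 CPM. PTPRC was at 0.419 CPM in CP+siNC and at 0.475, 1.33 and 0.671 CPM in the CP+siNAT10 libraries (log2 fold change 0.96); edgeR called it higher (adjusted p = 0.0411) and DESeq2 did not (adjusted p = 0.135). Among 4 fibroblast markers COL1A1 led and rose from 10.5 to 13.7 CPM, and COL1A2 and DCN were near 0. PDGFRB, which was not tested, was at 0.352 CPM in CP+siNC and 0.133 CPM in CP+siNAT10, lower in every CP+siNAT10 library. The part of PTPRC and COL1A1 in the results below was not tested.

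Taken as a group, the histone genes were at about 2 times the level with NAT10 siRNA, relative to library size. All 69 members together gave 1114, 1297 and 1168 counts in the CP+siNC libraries and 2515, 2464 and 3244 counts in the CP+siNAT10 libraries. Relative to library size these were 59.2, 60.6 and 60.7 CPM in CP+siNC and 119.5, 112.7 and 128.0 CPM in CP+siNAT10. The groups were far apart relative to their spread, with means of 60.1 ± 0.840 and 120.1 ± 7.64 CPM (here and below the SD of n = 3 libraries) and a ratio of 2.00. For such a sum, exact permutation of 3 v 3 libraries cannot go below p = 0.10, so no p is given. In bulk RNA a larger share of cells expressing these genes and more RNA per expressing cell cannot be told apart.

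Few of the members were deeply counted. On average over the 6 libraries 3 members were at 0 in all libraries (H2BC1, H2BC3 and H4C7), 7 had a mean of up to 1 count, 32 had above 1 to 10 counts, 22 had above 10 to 100 counts and 5 had above 100 counts. A count of 0 allows up to 3 counts in a library and covers counting error only. The filter kept genes at or above 0.473 CPM, here by library size without TMM scaling, in enough libraries for a group. That left 26 of the 69 members in the test across 19874 genes and 43 outside it.

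Of the 26 tested members, 19 were higher in CP+siNAT10, where 21.8% of all tested genes were called higher by edgeR's quasi-likelihood test at an adjusted p under 0.05. No member was called lower, where 22.3% of all tested genes were. No member was lower at an unadjusted p under 0.05 in edgeR either, or at an adjusted p under 0.05 in DESeq2. DESeq2 gave an adjusted p to 23 of the 26 members and called 13 of them higher, where it called 16.4% of all tested genes higher. The median log2 fold change of the tested members was 0.83, and that of all tested genes was 0.01. Past a 2-fold change as well there were 7 members, all higher, where 0.951% of all tested genes were higher and 1.38% lower by that rule. In 21 members every CP+siNAT10 library lay above every CP+siNC library, as in 25.7% of all tested genes. The shares of all tested genes given here are the background for each later count of called members.

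The filter itself acts on this count, since a gene that is high in CP+siNAT10 alone can pass it. H2BC8 and H2BC9 passed only through the CP+siNAT10 libraries, and 7 tested members had at least 1 CP+siNC library under the limit. The others of these 7 were H2BC6, H2BC18, H3C2, H4C12 and H4C16. They would not have passed by their CP+siNC libraries alone. With TMM scaling CP+siNC replicate 1 of H2BC9 would be just above the limit, at 0.478 CPM. H2BC8 and H2BC9 are among the tested members counted by class, position, length and sequence in this text. The others of the 7 are among those counted by class, position and length. Of the 19 members at or above the limit in all 6 libraries, 15 were higher, none lower and 4 more than 2-fold higher. The 43 members outside the test summed to 4.83, 5.28 and 5.40 CPM in CP+siNC and to 7.51, 7.37 and 8.48 CPM in CP+siNAT10. That is a ratio of 1.51 from genes with few counts each, with no overlap between the groups.

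**Figure D1:**
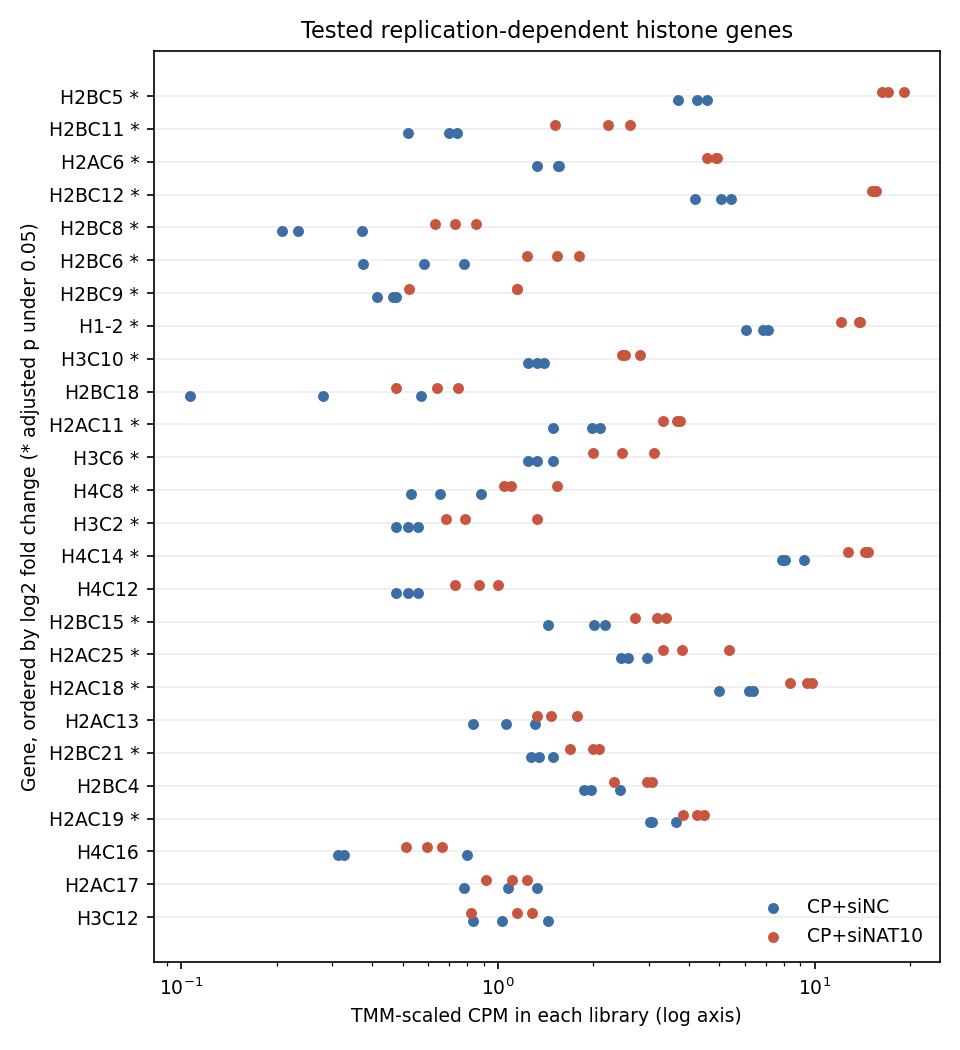
Level of each of the 26 tested histone genes in each library, as TMM-scaled CPM on a log axis, with CP+siNC in blue and CP+siNAT10 in red; genes are ordered by log2 fold change, and an asterisk marks an adjusted p under 0.05. The red points of H2BC5 and H2BC12 stand far to the right of the blue points, and those of H2AC17 and H3C12 at the bottom lie among them.

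The H2B class had the largest ratio of summed levels. H2B pairs with H2A in the nucleosome and carries the ubiquitin mark on its C-terminal tail. The 18 H2B genes summed to 16.5, 17 and 17.97 CPM in CP+siNC and to 46.8, 44.9 and 50.4 CPM in CP+siNAT10, means of 17.1 ± 0.761 and 47.4 ± 2.81 CPM and a ratio of 2.76. A large part of these sums came from H2BC5 and H2BC12. H2BC5 had means of 4.17 CPM in CP+siNC and 17.49 CPM in CP+siNAT10, and H2BC12 had 4.90 and 15.45 CPM. The ratio of the class without these genes was not computed. Of 10 tested H2B genes 8 were higher, 6 of them more than 2-fold, with a median log2 fold change of 1.23. Among all tested genes 21.8% were higher and 0.951% more than 2-fold higher. H2BC8 and H2BC9, which entered the test through CP+siNAT10 alone, are among the 8 higher genes. Without them 6 of 8 were higher, 4 of them more than 2-fold, with a median of 1.19. That count still holds H2BC6 and H2BC18, which had CP+siNC libraries under the filter limit.

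H2BC5 (ENSG00000158373), on the plus strand of chromosome 6 from 26158122 to 26171349, was at 4.57, 3.69 and 4.26 CPM in CP+siNC and at 17.1, 16.3 and 19.1 CPM in CP+siNAT10. Each CP+siNAT10 library was far above each CP+siNC library, and the raw counts behind these values were 86, 79 and 82 against 359, 356 and 485. The log2 fold change was 2.08 (SE 0.0986, edgeR quasi-likelihood test, adjusted p = 4.66e-16). Its gene model runs over more than the stem-loop region, since the deposited row ends at the same base as the poly(A) transcript end printed above.

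H2BC12 (ENSG00000197903), on the minus strand of chromosome 6 from 27146361 to 27146855, was at 4.20, 5.05 and 5.45 CPM in CP+siNC and at 15.5, 15.1 and 15.7 CPM in CP+siNAT10. The CP+siNAT10 libraries lay close together and well above CP+siNC, and the log2 fold change was 1.65 (SE 0.0932, edgeR quasi-likelihood test, adjusted p = 1.94e-14). Of the 75-base words in its annotated transcript 50.5% also occur in transcripts of other genes, so some of its reads could belong to another copy. H2BC5 has 1.5% of such shared words.

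The other H2B genes past 2-fold had fewer counts. H2BC11 was at 0.744, 0.701 and 0.519 CPM in CP+siNC and at 2.23, 1.51 and 2.60 CPM in CP+siNAT10, with a log2 fold change of 1.69 (SE 0.260, edgeR quasi-likelihood test, adjusted p = 3.92e-06). H2BC6 was at 0.584, 0.374 and 0.779 CPM in CP+siNC and at 1.81, 1.24 and 1.54 CPM in CP+siNAT10, with a log2 fold change of 1.41 (adjusted p = 0.000152 from the same edgeR test). In both genes the groups did not overlap, although the CP+siNC values of H2BC6 rest on 8 to 15 counts. H2BC8 had 7, 5 and 4 counts in CP+siNC and 18, 16 and 16 counts in CP+siNAT10, with a log2 fold change of 1.43. No CP+siNC library of H2BC8 reached the filter limit and DESeq2 gave it no adjusted p; edgeR called it with this filter (adjusted p = 0.00286) and without it (adjusted p = 0.00207). H2BC9 had 9, 10 and 8 counts in CP+siNC and 11, 25 and 29 counts in CP+siNAT10, with a log2 fold change of 1.06 (adjusted p = 0.0127 from edgeR), and it passed the filter through CP+siNAT10 alone as well. The difference in H2BC9 rests on CP+siNAT10 replicates 2 and 3, as replicate 1 was just above CP+siNC at 0.523 CPM. Without replicate 2 its edgeR adjusted p was 0.0738 and without replicate 3 it was 0.0819, within 0.00174 to 0.0819 over all alternatives (edgeR and DESeq2).

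H2BC15 was also higher, with a log2 fold change of 0.72 (adjusted p = 0.00126 from edgeR), and so was H2BC21, at 0.49 (adjusted p = 0.0493). The call for H2BC21 is at the edge of the limit and was lost in 9 of 13 alternatives, including each library left out other than CP+siNAT10 replicate 2, with adjusted p from 0.0337 to 0.199 in edgeR and DESeq2. H2BC4 (0.41, adjusted p = 0.0533) and H2BC18 (0.97, adjusted p = 0.0637) did not pass in edgeR. H2BC18 had 2, 6 and 11 counts in CP+siNC, and without CP+siNC replicate 3 its log2 fold change was 1.63 with an adjusted p of 0.00938 from edgeR, while without CP+siNC replicate 1 it was 0.58 with an adjusted p of 0.31. H2BC4 passed without CP+siNC replicate 2 (adjusted p = 0.032), without CP+siNAT10 replicate 1 (adjusted p = 0.0233), with library size alone (adjusted p = 0.0355) and with a minimum count of 30 (adjusted p = 0.0488) in edgeR.

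The H2A genes rose less as a class. The 17 H2A genes summed to 18.4, 18.96 and 19.2 CPM in CP+siNC and to 29.8, 30.5 and 33.6 CPM in CP+siNAT10, a ratio of 1.66. Of 7 tested H2A genes 5 were higher and 1 of these, H2AC6, was more than 2-fold higher. H2AC6 (ENSG00000180573), on the plus strand of chromosome 6 from 26124145 to 26139084, was at 1.33, 1.54 and 1.56 CPM in CP+siNC and at 4.89, 4.90 and 4.58 CPM in CP+siNAT10. Its CP+siNAT10 libraries were all about 3 times above CP+siNC, with little spread in either group. The log2 fold change was 1.69 (SE 0.155, edgeR quasi-likelihood test, adjusted p = 4.68e-10), and none of its 75-base words occurs in another gene's transcripts in GENCODE 29, although a gene of the deposited table overlaps it on the same strand, as given below.

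H2AC18 (ENSG00000288825), on the minus strand of chromosome 1 from 149842218 to 149842750, was at 6.37, 5.00 and 6.18 CPM in CP+siNC and at 9.78, 8.37 and 9.47 CPM in CP+siNAT10. The groups did not overlap, and the log2 fold change was 0.66 (SE 0.105, edgeR quasi-likelihood test, adjusted p = 6.8e-06). H2AC19, its neighbour on the opposite strand, was higher by 0.37 (adjusted p = 0.0291 from edgeR). That call was lost with edgeR adjusted p of 0.104 and 0.0964 without CP+siNC replicates 1 and 3 and of 0.0987 and 0.0688 without CP+siNAT10 replicates 2 and 3. Neither H2AC18 nor H2AC19 was found in GENCODE 29 by identifier. How far they share words with each other or with other genes was therefore not measured, and some of their reads could belong to another copy. H2AC11 (0.94, adjusted p = 2.4e-05) and H2AC25 (0.67, adjusted p = 0.00158) were higher in edgeR too. The value for H2AC25 rests in part on CP+siNAT10 replicate 3, without which it was 0.42 (adjusted p = 0.0435 from edgeR). H2AC13 and H2AC17 did not pass, with log2 fold changes of 0.51 and 0.03 and adjusted p of 0.0787 and 0.932 from edgeR. H2AC13 passed without CP+siNC replicate 2, at an edgeR adjusted p of 0.0471. Of the words of H2AC17 85.3% are shared with other genes, and it overlaps H3C12 on the same strand, so their counts are uncertain.

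H1 histones bind the linker DNA between nucleosomes, and H1-2 carried nearly all of the H1 counts. H1-2 (ENSG00000187837), on the minus strand of chromosome 6 from 26055740 to 26056470, was at 7.12, 6.07 and 6.85 CPM in CP+siNC and at 13.9, 12.1 and 13.8 CPM in CP+siNAT10. Every CP+siNAT10 library was well above every CP+siNC library, and the log2 fold change was 0.99 (SE 0.0916, edgeR quasi-likelihood test, adjusted p = 5.21e-10). H1-1, H1-3, H1-4, H1-5 and H1-6 had at most 13 counts in any library and were not tested. The 6 H1 genes summed to 7.41 ± 0.329 CPM in CP+siNC and 13.9 ± 1.24 CPM in CP+siNAT10, a ratio of 1.88.

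H3 and H4 form the central tetramer of the nucleosome. The 13 H3 genes summed to 5.41 ± 0.405 CPM in CP+siNC and 8.92 ± 0.817 CPM in CP+siNAT10, a ratio of 1.65. Of 4 tested H3 genes 3 were higher, H3C10 by 0.97 (adjusted p = 7.92e-05 from edgeR), H3C6 by 0.91 (adjusted p = 0.00049) and H3C2 by 0.82 (adjusted p = 0.0418). H3C2 was no longer called without any of the CP+siNC libraries in turn or without CP+siNAT10 replicate 1, with adjusted p from 0.0283 to 0.283 over its alternatives in edgeR and DESeq2. Its log2 fold change fell to 0.50 without CP+siNAT10 replicate 1, and was from 0.765 to 0.877 without a CP+siNC library. H3C12 was level, at -0.01 with an edgeR adjusted p of 0.977, and the sign of that value changed with the scaling.

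The 15 H4 genes summed to 11.3 ± 0.694 CPM in CP+siNC and 18.5 ± 1.67 CPM in CP+siNAT10, a ratio of 1.64. H4C14 (ENSG00000270882), on the plus strand of chromosome 1 from 149832657 to 149839767, was at 8.07, 9.25 and 7.89 CPM in CP+siNC and at 14.4, 12.8 and 14.8 CPM in CP+siNAT10. The groups did not overlap, and the log2 fold change was 0.73 (SE 0.0869, edgeR quasi-likelihood test, adjusted p = 5.77e-08). Of its 75-base words 96.2% are shared with other genes, and the untested H4C15 on the same chromosome shares 97.1% of its own. H4C8 was higher by 0.85 (adjusted p = 0.0144 from edgeR), and this call was lost without CP+siNC replicate 1 (adjusted p = 0.079), CP+siNC replicate 2 (0.052) or CP+siNAT10 replicate 3 (0.125). H4C12 (0.72, adjusted p = 0.0574) and H4C16 (0.31, adjusted p = 0.536) did not pass in edgeR. H4C12 passed with library size alone (0.76, adjusted p = 0.0449 from edgeR), and H4C16 was at 0.86 without CP+siNC replicate 1 and at 0.08 without CP+siNC replicate 2, not called in either.

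**Figure D2:**
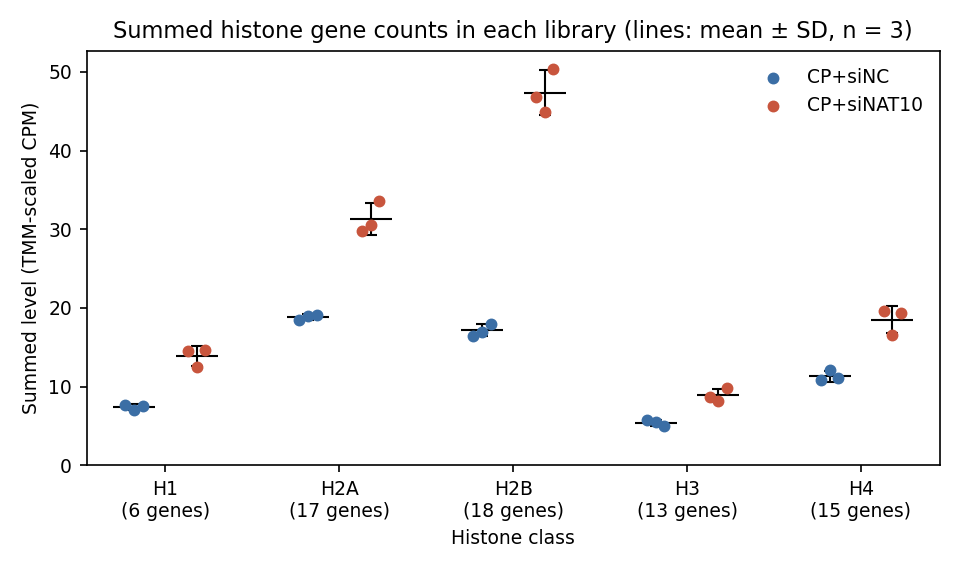
Summed level of all genes of each histone class in each library, tested or not, in TMM-scaled CPM; points are libraries, and lines are the mean with the SD of 3 libraries. In every class the CP+siNAT10 libraries lie above the CP+siNC libraries, with means of 17.1 and 47.4 CPM in H2B.

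Among the members that were not tested, those with the highest mean count were H2AC7, H4C15 and H3C14. H2AC7 had 6, 8 and 6 counts in CP+siNC and 9, 15 and 21 counts in CP+siNAT10. H4C15 had 2, 4 and 9 counts against 17, 10 and 14, and H3C14 had 5, 6 and 5 against 9, 8 and 14. In each of these genes every CP+siNAT10 raw count was above every CP+siNC raw count, but relative to library size the groups overlapped in H4C15. All 3 share most of their 75-base words with other genes, from 97.1% to 100%.

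Because gene length differs, levels were compared between genes as RPKM, CPM per kilobase of the deposited gene length. In CP+siNC the most abundant members by mean RPKM were H2AC18 (10.98), H2BC12 (9.89), H1-2 (9.14), H2AC19 (6.08) and H2BC5 (4.85). In CP+siNAT10 the order by mean RPKM was H2BC12 (31.2), H2BC5 (20.3), H1-2 (18.1), H2AC18 (17.3) and H2AC19 (7.86). The H2B genes H2BC12 and H2BC5 thus passed H2AC18 in level, while H1-2 and H2AC18 stayed close. By CPM the members with the most counts, H4C14, H2AC18, H2BC12, H1-2 and H2BC5, together rose 2.31 times, and the other 64 members together rose 1.68 times.

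By position, the 55 genes on chromosome 6 together rose from 36.5 ± 0.451 to 83.2 ± 5.03 CPM, a ratio of 2.28, and the 13 genes on chromosome 1 rose from 23.2 ± 0.730 to 36.3 ± 2.65 CPM, a ratio of 1.57. Of 19 tested members on chromosome 6, 14 were higher, and of 6 on chromosome 1, 5 were higher. All 7 members past 2-fold were on chromosome 6. Among all tested genes 21.8% were higher and 0.951% were higher past 2-fold. Its members below 27 Mb had a ratio of 2.38, with 9 of 10 tested members higher, and those above 27 Mb had a ratio of 2.14, with 5 of 9 higher. Among the higher members below 27 Mb are H2BC8 and H2BC9, which entered the test through CP+siNAT10 alone. So are H2BC6 and H3C2, each with a CP+siNC library under the filter limit. H4C16, the member on chromosome 12, had 15, 7 and 6 counts in CP+siNC and 14, 13 and 13 counts in CP+siNAT10, with overlapping groups. These differences between chromosomes and between classes are descriptions and were not tested.

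The other genes that lie between the first and the last histone gene on chromosome 6 were read as well. Of 93 such genes 29 were tested, 4 were higher and 6 lower, where 21.8% and 22.3% of all tested genes were, with a median log2 fold change of 0.08. The butyrophilin genes BTN2A2 (-0.69, adjusted p = 3.54e-13) and BTN2A1 (-0.30, adjusted p = 4.35e-08) and the nucleosome-binding protein gene HMGN4 (-0.48, adjusted p = 4.05e-11) had the smallest p-values in edgeR's quasi-likelihood test, and all were lower. The 4 higher genes, named after their values were seen, were ZNF184 (0.45), ZNF322 (0.22), ENSG00000290032 (0.94) and ENSG00000291336 (1.41). ENSG00000291336 spans 26123173 to 26554396 and overlaps the tested members H2AC6, H2BC5, H2BC6, H2BC9 and H3C6 on the same strand. It had 9, 13 and 12 counts in CP+siNC and 28, 39 and 37 counts in CP+siNAT10, and its counts and theirs are uncertain where exons are shared. HFE, which was lower by -0.29, overlaps H2BC4 on the opposite strand. Of 15 histone pseudogenes near the members 2 were tested and neither was called, and the 15 together had a ratio of 0.895.

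**Figure D3:**
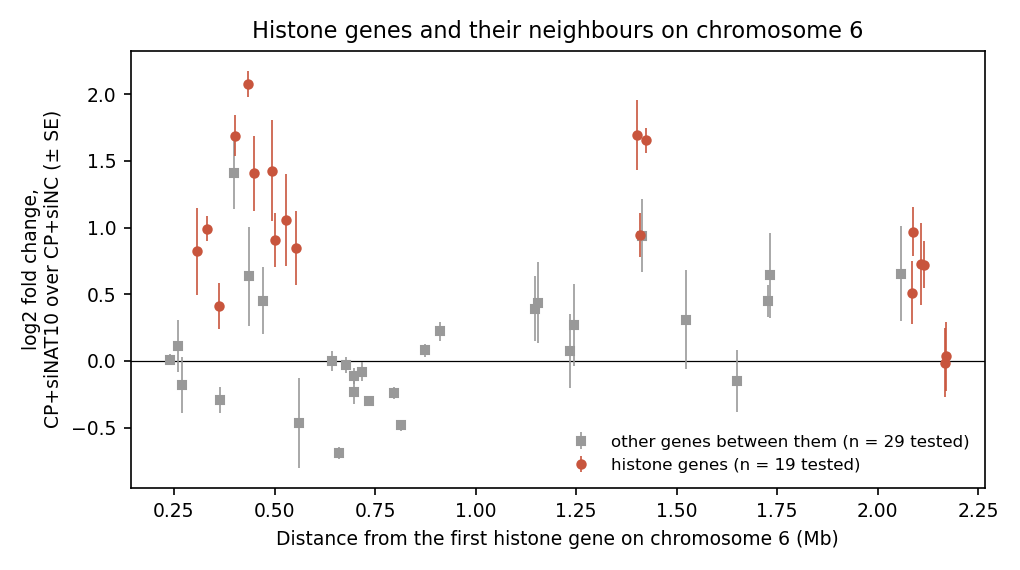
Log2 fold change (CP+siNAT10 over CP+siNC) with its approximate standard error on chromosome 6, by distance from the first histone gene in Mb. Red circles are the 19 tested histone genes and grey squares are the 29 tested genes between them. Most histone genes lie above 0.5, while the other genes lie on both sides of 0, from -0.69 to 1.41.

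Many H2A and H2B genes stand head to head and share the DNA between their starts. By a gap of up to 500 bases 12 such divergent pairs were found, of which 2 had both genes tested, 7 had 1 gene tested and 3 had none. The 2 partners often had unequal levels. H2BC12 averaged 224.5 counts over the 6 libraries and its partner H2AC12, 250 bases away, averaged 3.0 counts. In RPKM H2BC12 went from 9.89 to 31.2 and H2AC12 from 0.403 to 0.218, so that the H2B gene of this pair was the abundant gene in both groups.

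In other pairs the H2A gene led. H2AC13 averaged 28.2 counts and H2BC13 1.33 counts, with 2.16 and 0.0729 RPKM in CP+siNC. H2AC6 and H2BC4, which are 234 bases apart, had similar levels in CP+siNC at 0.885 and 0.725 RPKM. In CP+siNAT10 H2AC6 was at 2.87 RPKM and H2BC4 at 0.966 RPKM, the former called higher and the latter not called. The difference between the 2 fold changes was not tested. H2BC11 and H2AC11 made up the single pair in which both were called higher, with log2 fold changes of 1.69 and 0.94.

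**Figure D4:**
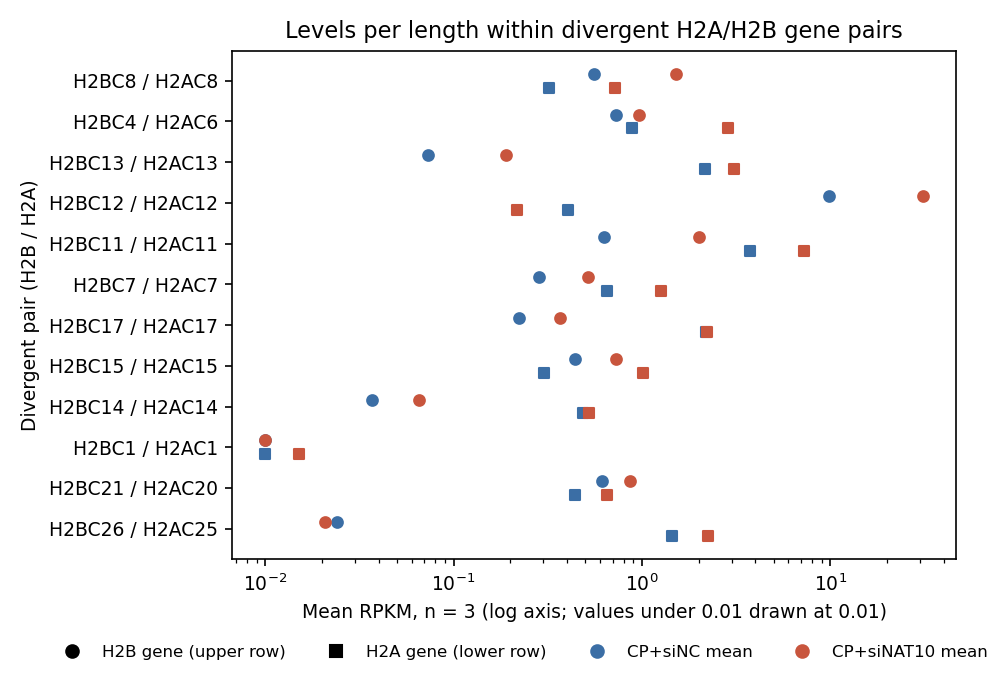
Mean RPKM (n = 3 libraries per group, log axis) of the H2B gene (circles, upper row) and the H2A gene (squares, lower row) of each of 12 divergent pairs, in CP+siNC (blue) and CP+siNAT10 (red); means under 0.01 are drawn at 0.01. H2BC12 stands far above H2AC12 in both groups, and H2AC6 and H2BC4 are close in CP+siNC alone.

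The members were also read by the length of the deposited gene and by the annotated poly(A) signal. The counts of calls by length and signal stand beside the 21.8% higher among all tested genes. The 16 genes of 1000 bases or more rose from 23.7 ± 1.31 to 42.7 ± 3.62 CPM, a ratio of 1.80, with 10 of 13 tested genes higher. The 53 shorter genes rose from 36.5 ± 0.588 to 77.4 ± 4.08 CPM, a ratio of 2.12, with 9 of 13 tested genes higher. With a limit of 700 bases the order turned, with ratios of 2.07 for the longer and 1.89 for the shorter genes. The 21 members with a poly(A) signal at an annotated transcript end held 53.2% of all member counts, and 15 of them were tested and 13 called higher. By its start and end, the deposited row held the signal in 12 of the 21 (10 tested, 8 called higher). In 9, among them H2AC6, H2AC11 and H2BC9, the signal lay outside the row (5 tested, 5 called higher). In H2AC6, H2BC6 and H3C6, which are among the 9, the deposited length equals that of the longest annotated transcript, at 1668, 2585 and 2679 bases. The row ends thus do not show which bases were counted, and nothing is concluded from this split. The 44 members found in GENCODE 29 without a poly(A) signal at an annotated end held 33.6% of the counts, and 8 were tested and 3 called higher. The summed ratios were 2.15 with the signal and 2.01 without it. The median count per library and gene was 30.8 with the signal and 3.17 without it, and the depth behind the calls thus differed as well.

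How far near-identical copies could share reads was read from the transcripts. Of the 23 tested members found in GENCODE 29, 16 had under 10% of their 75-base words in other genes. Of these 16, 14 were called higher, where 21.8% of all tested genes were. H2BC8 and H2BC9, which entered the test through CP+siNAT10 alone, are among these 14. So is H2BC6, which had a CP+siNC library under the filter limit. Among the members past 2-fold the share went from 0% to 50.5%, the latter in H2BC12. In 5 tested members it was 50% or more. H2AC18, H2AC19 and H3C2 were not among the genes found there by identifier.

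Other genes of histone supply were described from lists. The counts of calls in these lists stand beside the 21.8% higher and 22.3% lower among all tested genes. Histone variants are made outside S phase as well. There were 15 variants with counts, and 13 were tested, with 4 higher, 3 lower and a median log2 fold change of -0.01. MACROH2A2, a variant with a macro domain, rose from 12.2, 12.6 and 13.7 CPM in CP+siNC to 23.8, 26.5 and 28.8 CPM in CP+siNAT10, with no overlap and a log2 fold change of 1.05 (edgeR quasi-likelihood test, adjusted p = 1.4e-12). The replacement histone genes H3-3B (-0.30, adjusted p = 1.65e-08) and H2AZ1 (-0.29, adjusted p = 1.46e-07) were lower in edgeR, at 41.6 and 87.3 RPKM in CP+siNC and 33.8 and 71.3 RPKM in CP+siNAT10. The listed variants together went from 1082 ± 3.87 to 1027 ± 17.3 CPM.

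Of 8 genes for histone gene transcription 1 was higher and 2 were lower, with a median of 0.02. NPAT, the coactivator that sits at the histone gene clusters, was at 16.8, 16.5 and 16.04 CPM in CP+siNC and at 17.6, 16.1 and 19.6 CPM in CP+siNAT10, with overlapping groups (log2 fold change 0.12, adjusted p = 0.201 from edgeR). YY1 was higher by 0.26, and CCNE2 and CDK2, a cyclin and its kinase that act at S phase entry, had log2 fold changes of -0.16 and -0.15 and were called lower. Of 12 genes for the processing of the histone mRNA end 2 were higher and 5 lower, with a median of 0.0044. SLBP was at 145.9, 142.7 and 140.7 CPM in CP+siNC and at 117.8, 129.3 and 121.7 CPM in CP+siNAT10. It was lower in every CP+siNAT10 library, with a log2 fold change of -0.22 (edgeR quasi-likelihood test, adjusted p = 1.55e-05). The cap-binding subunit gene NCBP2 was lower by -0.24, and the cleavage factor gene CPSF3, which encodes the endonuclease, was higher by 0.25.

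Of 6 genes for histone mRNA decay none was called higher by edgeR and 2 were lower, TUT7 (-0.13) and the exonuclease gene ERI1 (-0.15), with 1 higher at an unadjusted p under 0.05 and none higher in DESeq2. DESeq2 called TUT7 lower and not ERI1 (adjusted p = 0.0111 and 0.0567). TUT4 had the third smallest p of this list, at 0.11 with an edgeR adjusted p of 0.0555. Of 15 histone chaperones 6 were higher and 2 lower, with a median of 0.02. CABIN1 (0.58), UBN1 (0.30) and ATRX (0.30) had the smallest p-values and were higher. Of 34 DNA replication genes 7 were higher and 13 lower, with a median of -0.07. The ribonucleotide reductase subunit gene RRM2 (-0.73) was lower, and the helicase subunit gene MCM5 (0.52) and the polymerase gene POLE (0.37) were higher.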

How the data were processed

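RNA of 6 samples, 3 per group, was sequenced by a company, Seqhealth. Unique molecular identifiers were added in library preparation as a means to correct for duplicate reads; whether the deposited counts were merged by them or counted by strand is not given in the sources used here. The submitters' processing notes name Trimmomatic 0.36, STAR 2.5.3a, featureCounts of Subread 1.5.1, edgeR 3.12.1 and GRCh38, and the annotation release is not given there. The values are raw counts per gene as deposited by the authors, with gene positions and lengths. Reads that fit several near-identical genes may be counted for a copy or dropped, and the setting used is not given.

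Groups and replicate numbers were taken from the labels. The groups were compared with edgeR 4.0.16 in R 4.3.3: filterByExpr with a minimum count of 10 and a minimum total of 15 kept 19874 genes and at least 99.79% of the counts of each library, TMM factors scaled the libraries, and glmQLFit and glmQLFTest gave the test, with Benjamini-Hochberg adjustment over all tested genes. The biological coefficient of variation was 3.00%. CPM and RPKM were computed from the counts for all members, tested or not. Libraries of a group differed by more than sampling noise (chi-square of at least 1.73 per gene), so none was a copy of another. The test was run on simulated data first.

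Named genes were NAT10, SLBP, NPAT, every tested member, the 3 untested members with the highest mean count and up to 3 genes with the smallest p from each other list; per-library values are given for members past 2-fold or at a mean of 5 CPM or more and for some other genes. Some genes outside this rule are named as the whole of a small count, as markers or as overlapping genes. The members and the lists were chosen with earlier results of these data known. A leukocyte marker of the lists, and the sum it enters, is not reported here. Of 19 listed variants 4 symbols were not found in the table under those names. Sequences were read with Python 3.11.15 from GENCODE 29 and RefSeq. Alternatives were other scalings, other filters, DESeq2 1.42.0, the replicate number as a block, each library left out and another length limit.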

Additional observations from a re-analysis of the deposited data

How the results depend on the processing

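Over all alternatives the number of members called higher was from 13 (DESeq2) to 21, against 19, and no member was called lower in any of them. It was 18 with RLE size factors, 21 with library size alone, 21 without the filter, 15 with a minimum count of 30, 19 with a filter on the mean, and 15 to 19 with a library left out. Of all tested genes 21.8% were higher in the main test, 21.55% with RLE size factors, 25.4% with library size alone and 10.1% without the filter. This share was 25.5% with a minimum count of 30, which left 15 members in the test, and 22.2% with a filter on the mean. With DESeq2 it was 16.4%, and with a library left out 18.6% to 19.7%. With library size alone 57.2% of all calls were higher, against 49.4%. The number past 2-fold was 7, and it was 11 with every gene of at least 1 count, which tests 66 members, 4 with a minimum count of 30, which tests fewer genes, 5 with DESeq2, 9 with library size alone and 6 to 10 with a library left out. In the main test 0.951% of all tested genes were more than 2-fold higher. That share was not worked out for the alternatives, so their counts of members past 2-fold have no background beside them. The neighbours on chromosome 6 gave 4 higher, 2 with a minimum count of 30 and 3 to 6 with a library left out. With a length limit of 700 bases the log2 ratio was 1.05 for the longer genes, against 0.85, and 0.92 for the shorter, against 1.09; the cause was not tested. The log2 ratio of all members stayed between 0.95 and 1.04 with a library left out, and that of the H2B class between 1.42 and 1.51. The value for NAT10 stayed between -0.85 and -0.80 with a library left out and was -0.79 with library size alone.

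For single members 286 results kept their direction and side of the threshold, 28 lost the call, 7 gained it and 5 changed sign, all 5 in genes with no call. H3C12 was at 0.025 with library size alone and from -0.17 to 0.21 with a library left out, positive when CP+siNC replicate 1 or CP+siNAT10 replicate 2 was dropped, against -0.01. H2AC17 went from -0.14 to 0.21 with a library left out, negative when CP+siNC replicate 3 or CP+siNAT10 replicate 1 was dropped, against 0.03; the cause was not tested. With DESeq2 H2BC9, H2AC19, H2BC21, H3C2 and H4C8 were not called, and H2BC8, H2BC18 and H4C16 were given no adjusted p.

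The replicate numbers of the labels gave no clear sign of a pairing between the groups. Deviations of same-numbered libraries from their group means had correlations of 0.04, 0.09 and -0.22 across the most abundant genes. Not every sample correlated best with its own number. With 3 libraries per group such correlations cannot exclude a pairing. With the replicate number as a block 17 members were higher, 7 past 2-fold, where 21.2% of all tested genes were higher, and NAT10 was at -0.83. H3C2 (adjusted p = 0.0547) and H2BC21 (adjusted p = 0.0717 from edgeR) were not called there. No other member's call changed with the block.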
